A study of Mus musculus with 4 samples.

Results

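The genes described here make the DNA breaks of meiosis and turn them into crossovers: Spo11, Prdm9, Dmc1, Meiob, Spata22, Msh4, Msh5 and Mlh3. They were chosen by symbol for these roles, and all 8 were found among the 55401 genes of the count files. RNA was measured in fetal oocytes at E18.5, in 2 libraries from the ND group and 2 from the HFD group. The mothers were ICR mice. Before mating with ND males they had eaten either normal chow (ND) or food rich in fat (HFD) for 4 months, and no altered allele is named for either group. Germ cells, which the labels call primordial germ cells, were sorted from fetal ovaries by the surface carbohydrate SSEA-1. Each library is a pool over several fetuses, prepared by SMART-Seq2, which amplifies the RNA of few cells. Whether the pools came from separate litters is not given in the sources used here, so p-values measure the spread between these libraries.

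In meiotic prophase I, SPO11 cuts both strands of DNA, in mice mostly at sites that the histone methyltransferase PRDM9 has marked. DMC1, a recombinase made in meiotic cells, coats the resected ends and leads them into the homologous chromosome, and the MEIOB-SPATA22 complex binds the single-stranded DNA together with RPA. The MSH4-MSH5 dimer holds the joined intermediates, and MLH3 is part of an endonuclease that resolves some of them as crossovers. In female mice these steps run in the fetal ovary, and breaks are made early in prophase I.

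The libraries held 8223255 and 7815015 counted reads in ND and 6456825 and 5723605 in HFD. A floor of 3 counts was 0.365 to 0.524 CPM (counts per 1000000 counted reads of the library). Replicates lay far apart. Among genes with at least 50 counts in either library of a pair, 37.5% in ND and 62.9% in HFD differed over 4-fold in CPM. Background was read from 1135 olfactory receptor genes, whose 99th percentile was 8.47, 9.01, 7.44 and 12.5 reads per kilobase of exon in ND replicates 1 and 2 and HFD replicates 1 and 2. A gene was called above background if it exceeded this value and 3 counts. All 12 germ cell markers exceeded background in at least 1 library and 5 in all 4, with summed levels of 2231 and 4110 CPM in ND and 5001 and 2728 CPM in HFD. Dazl, an RNA-binding protein of germ cells, ranged from 8.56 CPM in HFD replicate 2 to 3770 CPM in ND replicate 2. Other germ cell markers stood the other way, such as Sycp1, a protein of the synaptonemal complex, at 4.38 and 6.14 CPM in ND and 1400 and 1394 CPM in HFD, and Nobox, an oocyte transcription factor, at 1.70 and 6.40 CPM in ND and 1278 and 567 CPM in HFD. Ddx4, a helicase of germ cells, had 5.96 and 12.4 CPM in ND and 0.774 and 2.45 CPM in HFD. Pregranulosa markers were above background for 6 of 10 genes in at least 1 library, with 2 and 4 genes in ND and 0 and 2 in HFD. Their summed level was 34.3 and 415 CPM in ND and 21.8 and 1168 CPM in HFD. Most of the 415 CPM came from Fst, at 383 CPM, and most of the 1168 CPM from Amhr2, at 1113 CPM. For stroma, 9 of 9 genes were above background in at least 1 library. The stroma sums were 2843 and 69.0 CPM in ND and 2222 and 7700 CPM in HFD. Blood markers were above background for 3 of 5 genes, all in ND replicate 1, at 1972 CPM against at most 4.54 CPM elsewhere, and the globins Hba-a1, Hba-a2, Hbb-bs and Hbb-bt each had 0 counts in at least 1 of the other libraries. Endothelial markers were above background for 4 of 5 genes, with at most 697 CPM in a library, of which Kdr held 681 CPM. Macrophage markers were above background for 2 of 6 genes, with at most 40.2 CPM. The part of these other cells in the values below was not tested. In pooled cells, fewer cells of a type and less RNA per cell cannot be told apart.

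Of the genes that start recombination, Spo11 had low counts in every library, and the diets overlapped. Spo11 (ENSMUSG00000005883) lies on chromosome 2 of GRCm38 from 172977700 to 172993576, with 3921 bases of annotated exon. Spo11 was found in 31 and 32 reads of the ND libraries, and in 19 reads of HFD replicate 1 against 39 of HFD replicate 2. As levels these were 3.77 and 4.10 CPM in ND and 2.94 and 6.81 CPM in HFD. The lowest and the highest value both came from HFD, so that the ND libraries lay between the HFD libraries. Prdm9 (ENSMUSG00000051977), on chromosome 17 from 15543079 to 15564354, was counted 14 and 16 times in ND and 9 and 6 times in HFD. Its levels were 1.70 and 2.05 CPM in ND and 1.39 and 1.05 CPM in HFD. Both HFD values were below both ND values on this scale, but the exact 95% intervals overlapped, at 1.17 to 3.33 CPM for the highest and 0.385 to 2.28 CPM for the lowest library.

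Among the genes of strand invasion, Meiob was the exception of the 8 genes, through a single library. Meiob (ENSMUSG00000024155), on chromosome 17 from 24804289 to 24839788, had 11 counts in ND replicate 1, 1363 in ND replicate 2, 6 in HFD replicate 1 and 13 in HFD replicate 2. The corresponding levels were 1.34, 174, 0.929 and 2.27 CPM. ND replicate 2 was 76.8-fold above the next library and held 97.5% of the CPM summed over the 4 libraries, whereas ND replicate 1 lay between the HFD libraries. The nearest gene, Hagh, an enzyme of glyoxal breakdown that starts 355 bases beyond the end of Meiob, had 19 and 67 counts in ND and 12 and 10 in HFD. No other annotated gene shared exon bases with Meiob. Its pattern was also found elsewhere: 95 of 19335 genes tested, or 0.491%, had at least 50 CPM in ND replicate 2 and under 5 CPM in the other 3 libraries, and 216, 217 and 117 genes had the same pattern in ND replicate 1 (1.12%), HFD replicate 1 (1.12%) and HFD replicate 2 (0.605%). These limits were set after the values were seen.

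Dmc1 (ENSMUSG00000022429) lies on chromosome 15 from 79561497 to 79605109. Among the genes with counts in every library, it had the smallest ratio of the highest to the lowest CPM of library totals. After the TMM scaling described below it did not. Dmc1 had 15 and 17 counts in ND and 18 and 15 in HFD, or 1.82 and 2.18 CPM in ND and 2.79 and 2.62 CPM in HFD. The highest library was 1.53-fold above the lowest, and all 4 intervals overlapped. After TMM scaling this ratio was 2.32 for Dmc1, against 1.22 for Spo11. Spata22 (ENSMUSG00000112920), on chromosome 11 from 73329741 to 73346044, was found in 5 and 0 reads of ND and 1 and 3 of HFD. For the 0 in ND replicate 2, the floor of 3 counts stood at 0.384 CPM and the exact 95% interval reached 0.472 CPM. All 4 intervals of Spata22 overlapped, so no difference between libraries was resolved at these counts. The annotation places 1025 of the 1274 exon bases of Spata22 also in Gm49340, a gene on the same strand that had 0 counts in all 4 libraries. How reads on both genes were counted is not given in the sources used here, and the low counts of Spata22 are therefore uncertain.

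In CPM of library totals, the genes of crossover formation were highest in HFD replicate 2. Msh4 (ENSMUSG00000005493), on chromosome 3 from 153857149 to 153906138, was found in 36 and 15 reads of ND and 16 and 67 of HFD. Its levels were 4.38 and 1.92 CPM in ND and 2.48 and 11.7 CPM in HFD. The interval of HFD replicate 2 was 9.07 to 14.9 CPM. Msh5 (ENSMUSG00000007035), the partner of Msh4 on chromosome 17 from 35028605 to 35046745, was found in 26 and 32 reads of ND and 24 and 55 of HFD. This is 3.16 and 4.10 CPM in ND and 3.72 and 9.61 CPM in HFD. Mlh3 (ENSMUSG00000021245), on chromosome 12 from 85234520 to 85270599, had 19 counts in each ND library and 16 and 36 in HFD. Its levels of 2.31 and 2.43 CPM in ND and 2.48 CPM in HFD replicate 1 nearly coincided, while HFD replicate 2 reached 6.29 CPM. For each of the 3 genes the interval of HFD replicate 2 lay above those of the other 3 libraries on this scale, and for Msh4 and Msh5 HFD replicate 1 lay between the ND libraries.

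**Figure D1:**
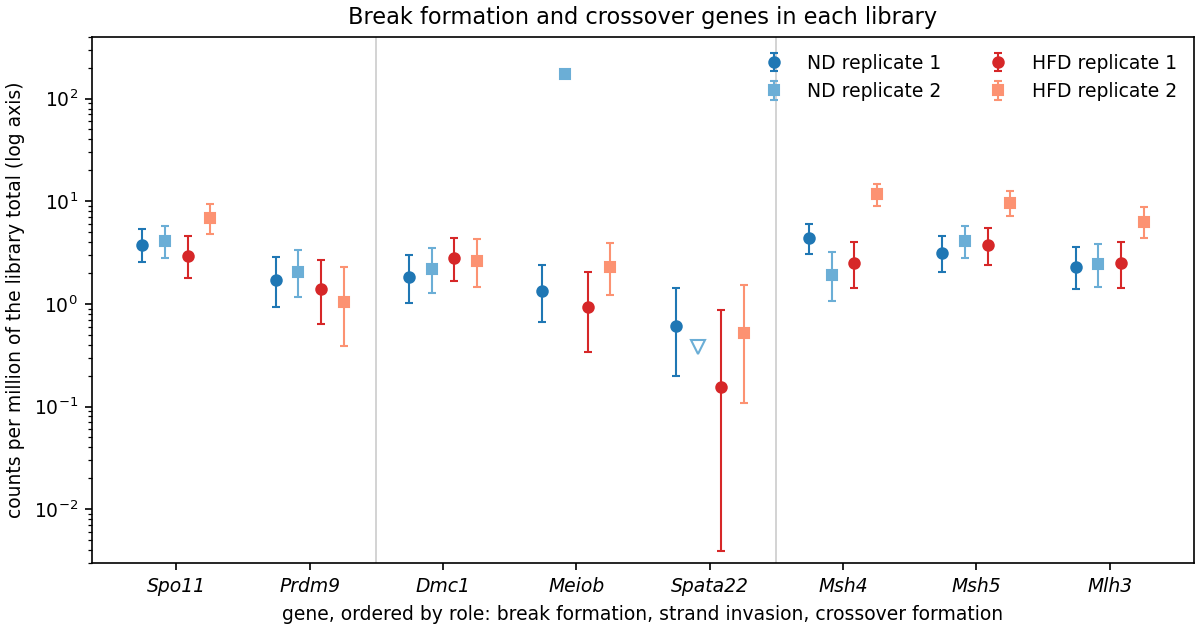
CPM of the library total (log axis) for the 8 genes in each ND and HFD library, with exact (Clopper-Pearson) 95% intervals that cover counting error only; the open triangle marks the floor of 3 counts, 0.384 CPM, for the 0 counts of Spata22 in ND replicate 2. Meiob stands at 174 CPM in ND replicate 2 and at 0.929 to 2.27 CPM in the other libraries, and Msh4, Msh5 and Mlh3 are highest in HFD replicate 2.

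The summed level of these genes was also compared with that of the olfactory receptor genes. Without Meiob, the genes summed to 146 and 131 counts in ND and 103 and 221 in HFD, or 17.8 and 16.8 CPM in ND and 15.95 and 38.6 CPM in HFD. Olfactory receptor genes, whose known role is odour sensing in the nose, summed to 1301 and 957 CPM in ND and 1228 and 1907 CPM in HFD, with HFD replicate 2 highest. Pooled per kilobase of exon, the 7 genes stood at 1.57 and 2.01 times the pooled olfactory receptor genes in ND and at 1.49 and 2.32 times in HFD. Set against the median olfactory receptor gene instead, the pooled value of the 7 genes was 1.69 and 3.05 times in ND and 2.25 and 2.97 times in HFD. The diets overlapped on either measure. The TMM factors of edgeR, which rescale the library totals, were 1.02 and 0.941 in ND and 0.692 and 1.51 in HFD. On the TMM scale Spo11 ranged from 3.70 to 4.52 CPM over the 4 libraries, against 2.94 to 6.81 CPM on the scale of library totals. Msh5 then stood at 5.37 CPM in HFD replicate 1 and 6.38 CPM in HFD replicate 2, and Mlh3 at 3.58 and 4.18 CPM, so that for both genes the intervals of the HFD libraries overlapped. The interval of Msh4 in HFD replicate 2, from 6.02 to 9.87 CPM after TMM scaling, still lay above those of the other libraries.

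Relative to background, 1 of 32 values of these genes exceeded the limit, Meiob in ND replicate 2 with 757 reads per kilobase. Of 21897 protein-coding genes, 42.7% exceeded it in at least 1 library and 22.3% in exactly 1 library. Dmc1 in HFD replicate 1, at 7.39 reads per kilobase, lay just under the limit of 7.44. Spo11 in ND replicates 1 and 2 stood at 7.91 and 8.16 reads per kilobase, under limits of 8.47 and 9.01. These values used the exons of all annotated transcripts together, which understates a gene whose oocyte transcript is shorter. A value under the limit therefore does not show that a gene was silent. Counted as single values over the 19317 genes tested with an annotated length, 18058 of 77268 exceeded the limit. At the 95th percentile of the olfactory receptor genes, 29371 of those 77268 values were above. Of the 32 values of the genes described here, 8 were above this percentile. These were Spo11 in both ND libraries and in HFD replicate 2, Dmc1 in ND replicate 2 and HFD replicate 1, Msh4 and Msh5 in HFD replicate 2, and Meiob in ND replicate 2. Spo11 stood between the 94.2 and the 98.5 percentile of the olfactory receptor genes and between the 72.0 and the 77.1 percentile of the protein-coding genes. Prdm9 and Mlh3 lay lower, between the 36.2 and the 81.8 percentile of the olfactory receptor genes. Spata22 reached lowest, between the 9.91 and the 73.0 percentile, and Msh4 ranged from the 62.7 to the 96.65 percentile.

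**Figure D2:**
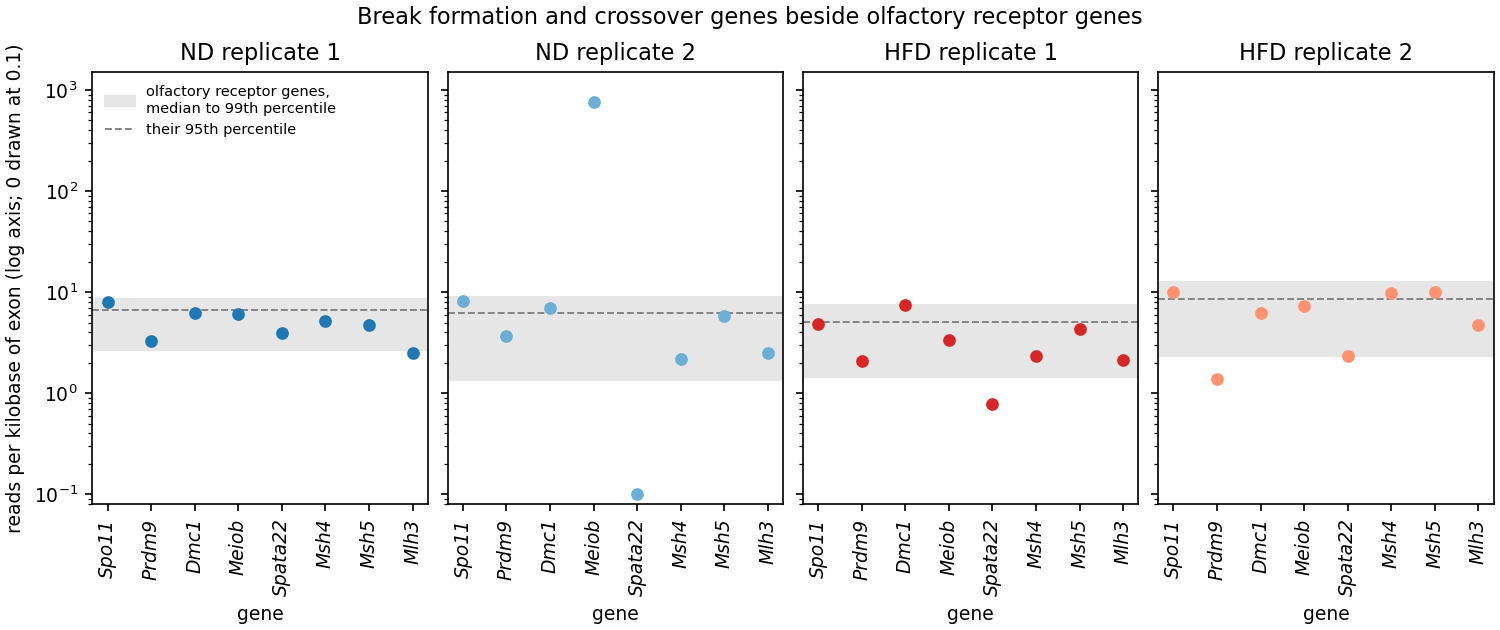
Reads per kilobase of exon (log axis, 0 drawn at 0.1) of the 8 genes in each library, where the grey band spans the median to the 99th percentile of 1135 olfactory receptor genes and the dashed line is their 95th percentile. Only Meiob in ND replicate 2 lies above the band, at 757 reads per kilobase.

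Levels of different genes were compared as CPM per kilobase of exon (RPKM), as medians over the 4 libraries. Spo11 had a median of 1.003 (range 0.751 to 1.74 RPKM), Meiob 1.002 (0.516 to 96.8), Dmc1 0.985 (0.749 to 1.15) and Msh5 0.707 (0.572 to 1.74). Msh4 had 0.497 (0.278 to 1.70), Prdm9 0.359 (0.243 to 0.475), Mlh3 0.325 (0.306 to 0.833) and Spata22 0.267 (0 to 0.477). Neighbours in this order overlapped in range throughout. The ranges of Spo11, Meiob, Dmc1 and Msh5 lay above those of Prdm9 and Spata22. Exon length was that of all annotated transcripts together, which understates a gene whose oocyte transcript is shorter.

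To learn whether these genes differed between the diets, HFD was compared with ND by edgeR's quasi-likelihood test on all genes. Of the 8 genes, 7 passed the filter on low counts, and Spata22 did not. None of the 7 was called, which took an adjusted p under 0.05 together with a change of more than 1.5-fold, and 0.0% of the 19335 genes tested were. At an unadjusted p under 0.05 there was 1 of the 7 genes, Meiob, against 11.2% of all genes tested and 6.41% lower in HFD. DESeq2 on all genes called 2539 of the 5601 genes to which it gave an adjusted p, or 45.3%, and of these 8 genes it called Meiob alone, with no adjusted p for the other 7. With 2 libraries against 2, an exact permutation test of 1 gene, two-sided, cannot give a p under 0.333.

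Meiob had a mean of 87.9 ± 122 CPM in ND and 1.60 ± 0.949 CPM in HFD (SD, n = 2 each). Its fitted log2 fold change of HFD over ND was -6.01 (standard error 2.29), for which edgeR gave a p of 0.0392 and, adjusted over all genes, 0.406. With DESeq2 the log2 fold change was -6.14 and the adjusted p 0.00117. Without ND replicate 2 it became 0.06 in edgeR, so that the difference rested on that library. With the replicate number as a block it was -3.51.

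For the other 6 genes the fitted changes were each under 2 times their standard error. The log2 fold change was 0.13 (standard error 0.37) for Spo11, -0.51 (standard error 0.73) for Prdm9 and 0.48 (standard error 0.54) for Dmc1. The crossover genes had 0.84 (standard error 0.64) for Msh4, 0.66 (standard error 0.42) for Msh5 and 0.68 (standard error 0.35) for Mlh3. Over these 6 genes the adjusted p lay between 0.425 for Mlh3 and 0.940 for Spo11 in edgeR. The median over the 7 genes was 0.48, against 0.03 over all genes tested, with 5 genes above 0 and 2 below. At these errors a difference of either sign remains possible for each of the 6 genes, and the values do not show that the diets were alike.

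The separation of the groups depended on the scaling. By library totals, Dmc1 and Mlh3 were higher in both HFD libraries than in either ND library, a pattern of 13.9% of all genes tested, and Prdm9 was lower in both, a pattern of 13.4%. On the TMM scale Dmc1 and Prdm9 overlapped, and Msh5 and Mlh3 lay above, where 16.1% of all genes did, while none of the 8 lay below, where 17.8% did. Mlh3 was thus the gene of the 8 that separated on both scales, with 2.27 and 2.59 CPM in ND and 3.58 and 4.18 CPM in HFD after TMM scaling. Its exact intervals still overlapped between the diets, at 1.56 to 4.04 CPM in ND replicate 2 and 2.92 to 5.78 CPM in HFD replicate 2. No value of Mlh3 exceeded background, and the share of all genes that separate on both scales was not counted. Mlh3 had an unadjusted p of 0.0965 in edgeR. Its log2 fold change ranged from 0.51 to 0.71 over the fits without 1 library, that of Msh5 between 0.36 and 0.86 and that of Msh4 between 0.18 and 1.39. The sign changed for Spo11 without ND replicate 1, to -0.06, for Dmc1 without HFD replicate 1, to -0.34, and for Prdm9 without HFD replicate 2, to 0.07.

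**Figure D3:**
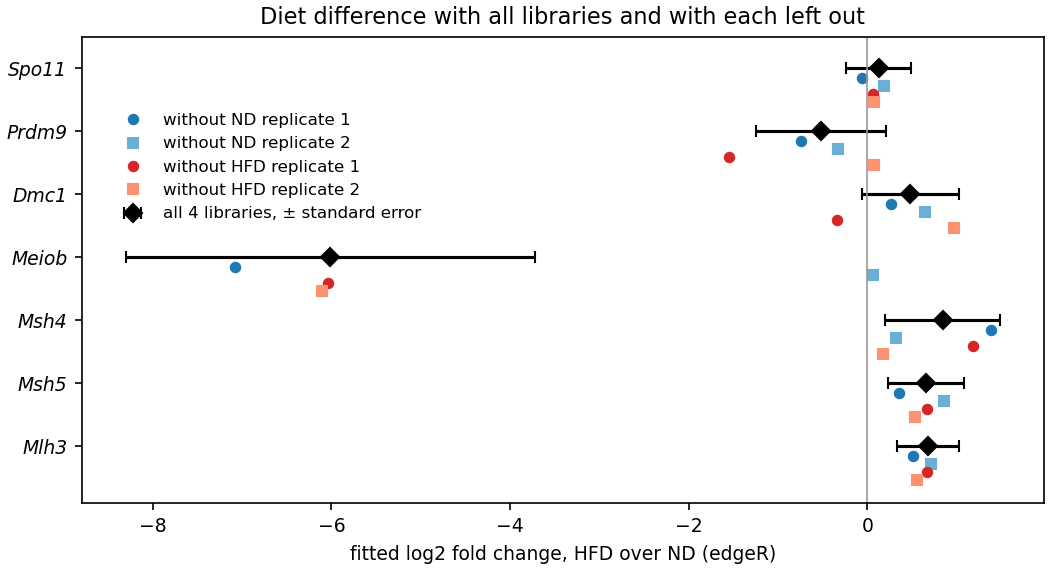
Fitted log2 fold change of HFD over ND for the 7 genes that passed the filter, from edgeR, with all 4 libraries (diamonds, bars are ± the standard error) and with each library left out (coloured points). Meiob moves from -6.01 to 0.06 without ND replicate 2, and Msh4, Msh5 and Mlh3 stay above 0 in each case.

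The other genes of the pathway were read from a list of 41 genes, of which 34 passed the filter on low counts. By edgeR none was called, and 6 had an unadjusted p under 0.05, with 2 higher in HFD and 4 lower, where 4.82% and 6.41% of all genes did so in the same order. DESeq2 gave 4 of the 41 genes an unadjusted p under 0.05. It called 4 of the 12 to which it gave an adjusted p, beside 45.3% of all genes with an adjusted p. Of these 4, 1 was higher in HFD (Hells) and 3 lower (Rpa3 and Pms2 among them). Hells peaked at 9111 counts, all from HFD replicate 2, against 27 to 371 elsewhere. Pms2 peaked at 4675 counts, from ND replicate 2, against 16 to 67 elsewhere. The median log2 fold change in edgeR was 0.01. In CPM of library totals, 4 of the 34 tested genes had both HFD values above both ND values, 4 had them below and 26 overlapped, beside 13.9% and 13.4% of all genes. After TMM scaling 3 lay above and 7 below, beside 16.1% and 17.8%. The genes named next are those whose diets did not overlap by library totals. Above background were 28 of the 41 genes in at least 1 library, 13 in none and 1 in all 4, with 10 and 21 genes in ND and 8 in each HFD library. Over all protein-coding genes the share above background was also lower in HFD, at 24.9% and 22.1% in ND and 13.3% and 15.2% in HFD. Of the break formation genes, Ankrd31, a partner of REC114 in placing breaks, had 47 and 71 counts in ND and 14 and 22 in HFD (log2 fold change -1.42, standard error 0.49). Of the strand invasion genes, Zswim7, which works with SWSAP1 in loading recombinases, was the gene above background in all 4 libraries. It had 34 and 36 counts in ND and 7 and 15 in HFD, with a log2 fold change of -1.43 (standard error 0.35). Brca2, which loads DMC1, had 161 and 249 counts in ND and 36 and 106 in HFD, and a log2 fold change of -1.38 (standard error 0.80). These 3 genes, named for lower values in both HFD libraries, had an adjusted p of 0.406 for Ankrd31 and Zswim7 and 0.485 for Brca2 in edgeR.

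Rpa3, a subunit of the RPA complex that MEIOB and SPATA22 join, had 2445 counts in ND replicate 1 and 3 to 13 in the other libraries. Of the crossover genes, Mus81 and Eme1 form an endonuclease that cuts joint molecules, and were named for higher values in both HFD libraries. Mus81 had 11 and 15 counts in ND and 22 and 55 in HFD (log2 fold change 1.75, standard error 0.43). Eme1 had 8 and 16 in ND and 17 and 47 in HFD (log2 fold change 1.56, standard error 0.57). Each had an adjusted p of 0.406 in edgeR and exceeded background in 1 library only. In both genes HFD replicate 2 was highest, as for Msh4, Msh5 and Mlh3. Rnf212, which marks crossover sites, had 11 and 7 counts in ND and 12 and 15 in HFD, all at background. Hfm1, a helicase of crossover formation, had 41 and 21 counts in ND and 8 and 17 in HFD, and is the remaining gene with an unadjusted p under 0.05. Rpa3, Hfm1, Pms2, a mismatch repair gene, and Hells, a chromatin remodeller, were named after their values were seen.

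**Figure D4:**
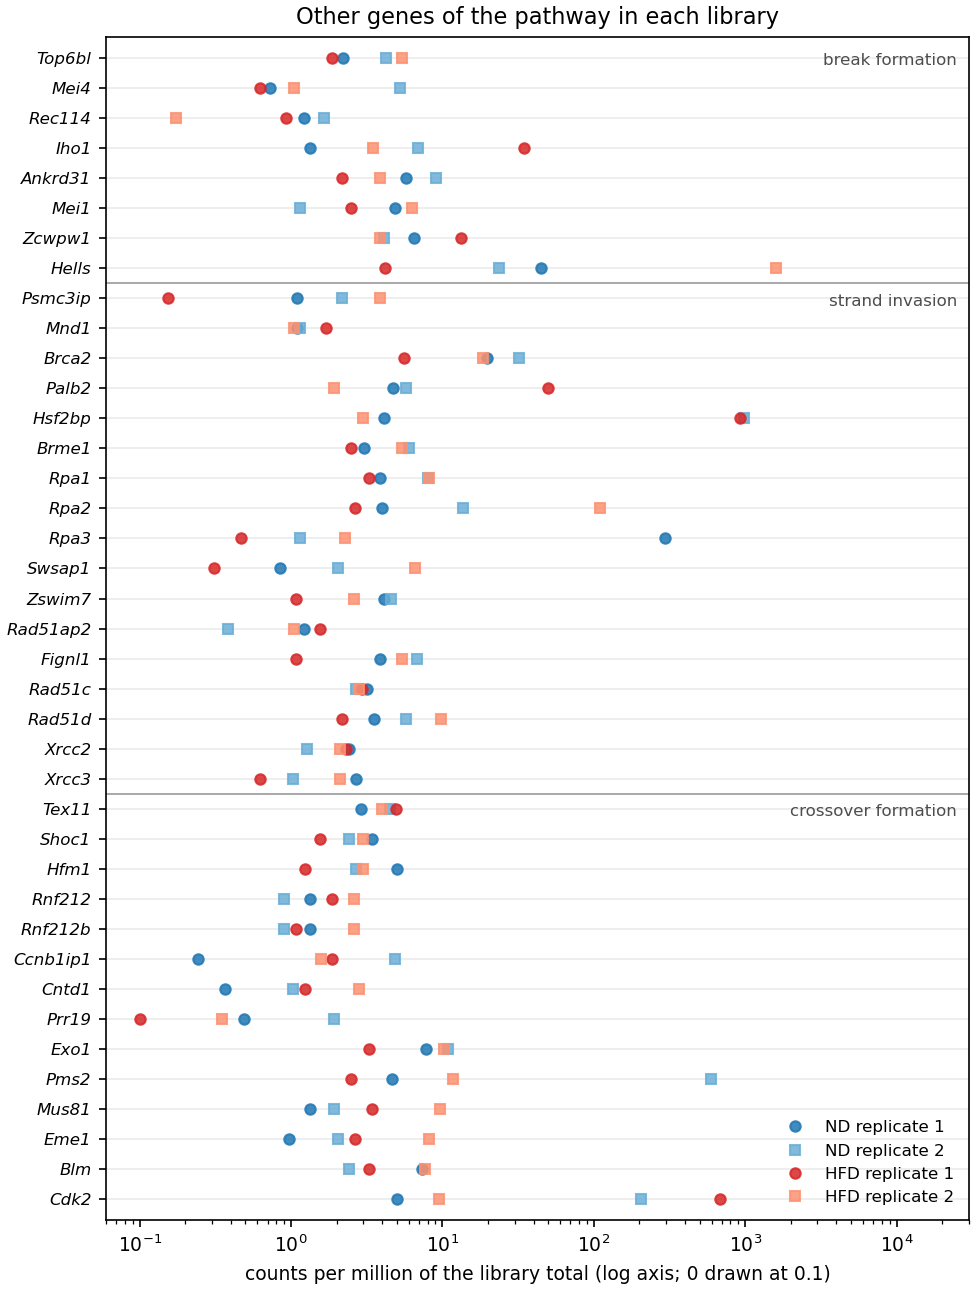
CPM of the library total (log axis, 0 drawn at 0.1) in each library for 39 other genes of break formation, strand invasion and crossover formation. Several genes stand high in a single library, such as Rpa3 at 297 CPM in ND replicate 1 and Hells at 1592 CPM in HFD replicate 2, and Mus81 and Eme1 are highest in HFD replicate 2.

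Other genes with the same profile were sought by Euclidean distance of log2 CPM over the 4 libraries, among 15805 other protein-coding genes. For Meiob, 1 gene lay within a distance of 1, Ccdc126 at 0.91, with 9 and 1605 counts in ND and 12 and 11 in HFD. The second was Mrpl22 at 1.19. The remaining 6 genes each had between 393 and 1510 genes within this distance. The nearest were Glrx and Mmp2 for Spo11, Prdm14 and Map7d3 for Dmc1, Fam78b and Olfr550 for Msh4, Zfp68 and Osgin1 for Msh5, Dner and Rnf40 for Mlh3, and Nrsn1 and Plek2 for Prdm9, at distances of 0.103 to 0.272. Among the 7 genes themselves, Spo11 and Msh5 were the closest pair at 0.617, Msh4 and Msh5 stood at 1.24, and Meiob was at least 5.85 from each of the others. The points share 4 libraries and low counts, and these distances are a description.

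Promoters of germline genes are known targets of a Polycomb complex that holds E2F6 and MGA, whose DNA motifs are TCCCGC and the E-box CACGTG. In RefSeq windows of GRCm38.p6 from 250 bases before to 50 bases after the transcription start, 6 of the 8 genes were listed (Dmc1, Mlh3, Msh4, Msh5, Prdm9 and Spata22). On either strand, TCCCGC was found in 4 of the 6, against 22.0% of all 27025 genes in the table, and CACGTG in 0 of the 6, against 8.1%. The stretches below show the match nearest before the start for each of the 4 genes, on the strand of the gene, with the motif or its reverse complement GCGGGA in capitals.
Dmc1, chr15:79605105-79605134, minus strand: aagggggcttgcTCCCGCggccctcatttg
Spata22, chr11:73329725-73329754, plus strand: gggttttcagagGCGGGAagttccgcgtgg
Prdm9, chr17:15564383-15564412, minus strand: cgcttttcttgtTCCCGCccctcagccagc
Msh5, chr17:35046670-35046699, minus strand: gtgacggaaaagGCGGGAaagtgctgcgaa
The motif began 13 bases before the start in Dmc1, 4 in Spata22, 46 in Prdm9 and 65 in Msh5. A match describes these letters and is no evidence of binding. None of these 4 genes exceeded background in any library.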

How the data were processed

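The deposited counts were used as the authors gave them: raw whole numbers per Ensembl gene, 1 library per file. Before deposit, the authors used Trim Galore for trimming, HISAT2 for alignment (mm10) and featureCounts for counting. The annotation release, strand setting and handling of reads on several genes are not given in the sources used here. Gene names, coordinates and lengths were taken from GENCODE M21 (GRCm38), which listed 55141 identifiers and lacked 260. Diets were compared with edgeR 4.0.16 in R 4.3.3 (quasi-likelihood, legacy FALSE, TMM, filterByExpr, Benjamini-Hochberg), and with DESeq2 1.42.0 as an alternative. The standard error was obtained by dividing the absolute log2 fold change by the root of the F statistic. For distances a prior count of 2 was added before taking log2 CPM. The functions were tested on simulated data, whose spread between replicates was set in advance and not taken from these libraries. That test therefore does not speak for the replicate spread seen here. Intervals are exact binomial (Clopper-Pearson, 95%). Without molecular identifiers, intervals and floors speak only for counting error. Intervals and pathway tallies on the TMM scale were added after seeing the data. The genes, the pathway and marker lists and the olfactory background were chosen with earlier results of these data known. All 8 genes are named. Tested pathway genes were named where the diets did not overlap in CPM (at most 6 in each direction by p), except that 2 of the 41 are counted but not reported here by name, and the 2 nearest protein-coding genes were named for each profile.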

Additional observations from a re-analysis of the deposited data

How the results depend on the processing

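No gene of the 8 was called under RLE or library size scaling, either other filter, the legacy edgeR fit, the replicate block or with any library left out, and DESeq2 called 1, Meiob. Over all genes, DESeq2 called 2539 and the legacy fit 34, against 0 in the remaining settings. The 1 gene with an unadjusted p under 0.05 became 0 with at least 10 counts in every library (which removes Meiob and Prdm9), with the legacy fit and with the replicate block, and 0 to 1 with a library left out. It was 0 without ND replicate 2 or HFD replicate 2, Meiob without ND replicate 1, and Prdm9 in place of Meiob without HFD replicate 1. For the other pathway genes the 6 became 3 by library size only, 2 with at least 10 counts, 2 with the legacy fit, 5 without a filter, 4 with DESeq2, 4 with the block, and 4 to 8 with a library left out. Same-numbered libraries did not deviate together (correlation 0.011 over 19335 genes), and the main fit used no block. Whether same-numbered libraries were handled together cannot be told from this value. With a library left out, the log2 fold change ranged from -0.06 to 0.19 for Spo11, -0.34 to 0.97 for Dmc1, -7.08 to 0.06 for Meiob and -1.55 to 0.07 for Prdm9. In the other alternatives no gene changed sign, although library size scaling moved the median of all genes from 0.03 to 0.21. The cause of these changes was not tested. At the 95th percentile of the olfactory receptor genes, 8 values were above background instead of 1. Counts of 0 to 67 outside Meiob limit what these libraries can resolve.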
